A study of Homo sapiens with 6 samples.

Results

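The genes described here are the nuclear-encoded genes of the 5 oxidative phosphorylation complexes in clonal HEK293 lines, taken by name from the deposited expression tables. Gene rows were chosen when the symbol began with NDUFA, NDUFB, NDUFC, NDUFS or NDUFV and a digit, was SDHA to SDHD, began with UQCR or ATP5, or was a COX gene numbered 4 to 8 with a letter A to C. The patterns matched 238 rows. Of these, 147 had pseudogene symbols and were dropped, and 8 had fewer than 60 counts summed over the 6 libraries and were dropped as well. The remaining 83 rows, of 58395 gene rows in all, comprised 38 of complex I, 4 of complex II, 9 of complex III, 10 of complex IV, 20 of complex V and 2 antisense RNAs. The antisense RNAs, NDUFA6-AS1 and NDUFV2-AS1, match the names but encode no subunit, so 81 genes are described as subunit genes. A few of those are relatives or regulators of subunits. Among them, ATP5IF1 inhibits the ATP synthase, and UQCRHL, ATP5MGL and NDUFA4L2 are gene copies named after UQCRH, ATP5MG and NDUFA4. ATP5S is counted with complex V by its name and is not placed in any of the parts of complex V described below. NDUFA4 is counted with complex I by its name, although the protein is known to associate with complex IV. The patterns do not reach NDUFAB1, CYC1, COX4I1 and COX4I2, which are taken up with the other genes of the pathway.

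Each library came from a separate clonal line of HEK293, an established line of human embryonic kidney origin. GST lines 2, 8 and 9 overexpressed glutathione S-transferase, the control protein, and NOCT lines 4, 11 and 12 overexpressed nocturnin without residues 2 to 15, both with the tag written as 3F in the labels. All 6 lines thus carry an expression construct and each is 1 clone, so a difference between groups is a difference between 3 clones and 3 clones, and p-values measure the spread between these lines; the promoter of the constructs is not given in the sources used here. Nocturnin is an enzyme that removes a phosphate from NADP and NADPH and has been described in mitochondria, and the comparison asks whether RNA of the respiratory genes differed between lines with this form of it and control lines.

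Complexes I to IV pass electrons from NADH and succinate to oxygen, and complexes I, III and IV pump protons across the inner mitochondrial membrane. Complex V, the ATP synthase, uses the proton gradient to make ATP. Mitochondrial DNA encodes a few of the hydrophobic subunits of complexes I, III, IV and V, and all the others, with every subunit of complex II, are made from nuclear genes scattered over the chromosomes. Transcription factors known to bind promoters of these nuclear genes include NRF1, the ETS factor GABP, YY1 and SP1.

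Promoters of 62 of the 81 subunit genes were in the RefSeq table used (GRCh38.p14, 250 bases before to 50 bases after each gene's start). The genes lie on 22 chromosomes, and their promoters were searched for letters they have in common; 1 promoter of each complex is shown. NDUFA8 and ATP5MC2 carry the NRF1 letters, UQCR11 and COX6B1 the ETS letters, and SDHB all 4 motifs searched. Capitals mark GCATGCGC (NRF1), CCGGAAG (ETS), AAGATGGCG (YY1) and GGGCGG (SP1) on either strand, where the NRF1 letters can overlap their own reverse complement, as in NDUFA8. The windows are chr9:122159730-122160029 (minus strand) for NDUFA8, chr1:17053983-17054282 (minus strand) for SDHB, chr19:1605413-1605712 (minus strand) for UQCR11, chr19:35648073-35648372 (plus strand) for COX6B1 and chr12:53676034-53676333 (minus strand) for ATP5MC2.
NDUFA8: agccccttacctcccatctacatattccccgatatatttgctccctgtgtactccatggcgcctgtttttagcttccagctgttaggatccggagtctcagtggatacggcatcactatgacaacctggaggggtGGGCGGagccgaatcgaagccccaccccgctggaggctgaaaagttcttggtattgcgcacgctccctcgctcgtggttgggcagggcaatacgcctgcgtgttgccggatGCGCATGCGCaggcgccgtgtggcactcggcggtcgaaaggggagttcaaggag
SDHB: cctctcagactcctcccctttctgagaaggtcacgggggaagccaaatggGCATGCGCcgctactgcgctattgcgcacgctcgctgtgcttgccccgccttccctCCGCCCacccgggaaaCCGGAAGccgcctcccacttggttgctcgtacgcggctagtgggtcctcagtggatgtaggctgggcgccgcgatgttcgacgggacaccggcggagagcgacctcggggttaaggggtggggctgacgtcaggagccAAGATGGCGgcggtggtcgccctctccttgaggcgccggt
UQCR11: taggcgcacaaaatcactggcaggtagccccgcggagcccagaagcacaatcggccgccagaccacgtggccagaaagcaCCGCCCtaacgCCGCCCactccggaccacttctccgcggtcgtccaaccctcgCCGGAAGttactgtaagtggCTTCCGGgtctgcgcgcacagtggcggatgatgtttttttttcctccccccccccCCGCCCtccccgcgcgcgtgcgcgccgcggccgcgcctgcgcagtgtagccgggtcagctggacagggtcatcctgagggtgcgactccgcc
COX6B1: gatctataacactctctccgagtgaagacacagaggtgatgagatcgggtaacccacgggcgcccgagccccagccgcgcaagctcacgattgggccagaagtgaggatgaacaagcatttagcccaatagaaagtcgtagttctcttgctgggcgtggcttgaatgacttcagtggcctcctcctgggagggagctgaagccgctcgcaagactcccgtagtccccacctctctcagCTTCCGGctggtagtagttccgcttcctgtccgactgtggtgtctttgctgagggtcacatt
ATP5MC2: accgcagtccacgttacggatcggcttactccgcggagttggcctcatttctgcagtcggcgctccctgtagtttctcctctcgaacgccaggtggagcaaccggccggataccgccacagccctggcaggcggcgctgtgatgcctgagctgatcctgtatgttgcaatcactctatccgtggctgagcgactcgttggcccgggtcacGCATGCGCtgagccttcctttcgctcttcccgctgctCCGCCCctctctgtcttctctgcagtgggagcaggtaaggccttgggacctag

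The NRF1 letters were present in 13 of the 62 promoters (21.0%), against 3.27% of all 27305 promoters in the table and 4.26% of the 15842 promoters of protein-coding genes. The ETS letters were in 18 of 62 (29%), against 10.7% of all promoters and 14.2% of coding ones, and the YY1 letters in 8 of 62 (12.9%), against 1.85% and 2.74%. The SP1 letters, a short GC-rich motif, were in 38 of 62 (61.3%), against 44.6% of all and 58.5% of coding promoters. On the strand of the gene only, the SP1 letters were less frequent in the members, 19.4% against 29.9% of all and 40.5% of coding promoters, while the ETS letters were in 12.9% against 5.98% and 8.05%. At least 1 of the first 3 motifs was found in 29 promoters (46.8%), against 14.6% of all and 19.5% of coding promoters. By complex, the NRF1 letters were in 5 of 31 promoters of complex I, 2 of 3 of complex II, 0 of 7 of complex III, 2 of 9 of complex IV and 4 of 12 of complex V. A match of letters is a description of the window and not a bound site.

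Libraries held 19729745 to 24422406 gene counts, and the 83 rows took 92282 to 125355 of these, or 0.468% to 0.523% of a library. Each library held the construct of its label. The GST construct had 4.64, 2.13 and 2.46 CPM (counts scaled to library size with TMM factors, as a rate) in GST lines 2, 8 and 9 and at most 0.0393 in NOCT lines. The NOCT construct had 2.91, 2.06 and 4.11 CPM in NOCT lines 4, 11 and 12 and 0.147 to 0.325 in GST lines (exact two-sided permutation p = 0.1 for each construct, the smallest that 3 lines against 3 can give). Of 8 genes known from HEK293 cells, 7 had a mean of at least 1 TPM (a level per gene length, scaled to the same total in every library). The summed TPM of those 8 was 514 to 713 in GST lines and 676 to 1266 in NOCT lines (exact two-sided permutation p = 0.2), and its part in the results was not tested. Markers of other tissues were low: 3 leukocyte genes summed to at most 0.402 TPM with CD3E at 0, 3 endothelial genes to at most 0.551, 4 striated muscle genes to 2.22 to 3.78, nearly all of it ACTN2, and 5 kidney tubule genes to 5.17 to 8.03 in GST and 2.43 to 4.38 in NOCT lines with UMOD at 0. The 4 fibroblast genes summed to 2.14 to 8.78 TPM with COL1A2 at 0. In bulk RNA, fewer cells of a type and less RNA per cell cannot be told apart.

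RNA levels within complex I ran from 0.589 TPM for NDUFA4L2, a gene copy with 73 counts in all, to 528 TPM for NDUFS5. Among its core and accessory subunits the lowest was NDUFA9 with 2.86 TPM, a place that rests on its length of 10391 bases of exons. In counts NDUFA9 (1334) was above NDUFA7 (232), NDUFA13 (540), NDUFB8 (812) and NDUFA11 (1252). Summed over its genes and averaged over the lines, complex I reached 2367 TPM, complex V 1970, complex IV 1039, complex III 745 and complex II 141. The sums of GST and NOCT lines overlapped for every complex. The sums were 2404 ± 208 in GST and 2330 ± 165 TPM in NOCT lines for complex I, 139 ± 11.6 and 143 ± 14.9 for complex II, and 727 ± 32.3 and 762 ± 76.3 for complex III (SD, n = 3 each). Complex IV summed to 982 ± 28.9 and 1095 ± 214 TPM and complex V to 1954 ± 164 and 1985 ± 52.8 (SD, n = 3 each). The large spread of complex IV in NOCT lines came with COX6B1, its most abundant member, which ran from 178 TPM in NOCT line 12 to 588 in NOCT line 4.

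**Figure D1:**
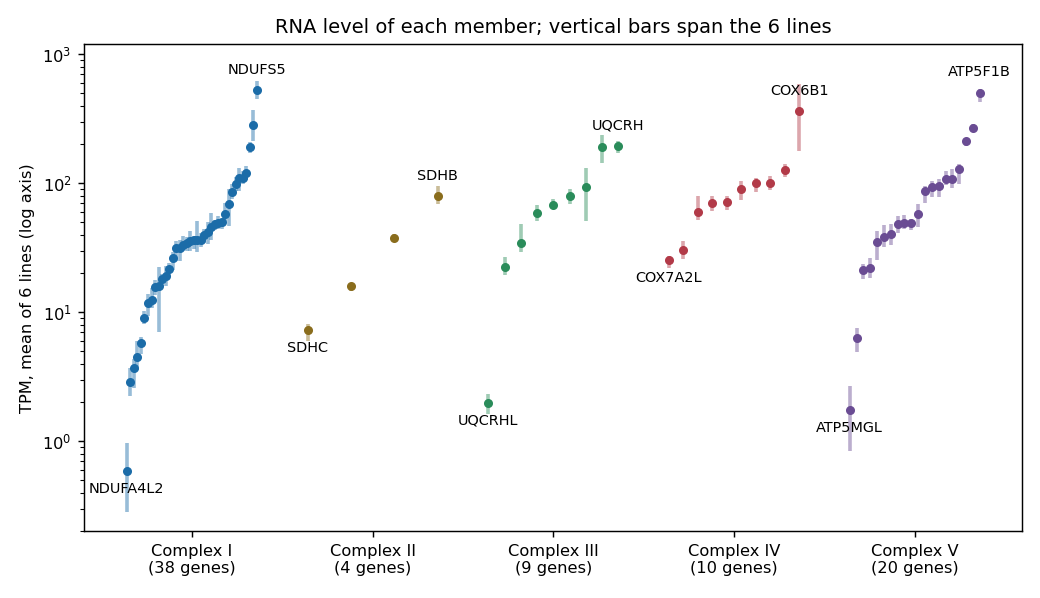
Mean TPM over the 6 lines (log axis) of each of the 81 subunit genes, ordered by level within each complex; vertical bars run from the lowest to the highest line. Levels ran from 0.589 TPM for NDUFA4L2 to 528 for NDUFS5, and the longest bar among abundant genes belongs to COX6B1.

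Within complex I, the 7 nuclear core subunits, which carry the flavin and the iron-sulfur clusters, were lowest at NDUFS7 with 12.4 TPM. That place rests on its length of 7533 bases of exons. In counts NDUFS7 (4190) was above NDUFS3 (3107) and NDUFV2 (1900). The 29 accessory subunits, which surround and stabilise the core, ran from 2.86 TPM (NDUFA9) to 528 TPM (NDUFS5), with NDUFB10 second at 281 TPM. Core and accessory genes had nearly equal medians, 34.2 and 36.2 TPM. In complex II, SDHB, the iron-sulfur subunit, was highest at 79.5 TPM, followed by the flavoprotein SDHA at 37.9 and the membrane anchors SDHD at 16.1 and SDHC at 7.27. The 4 levels kept this order in all 6 lines without overlap: SDHB was 69.2 to 94.4, SDHA 34.9 to 40.2, SDHD 14.5 to 16.9 and SDHC 6.03 to 8.06 TPM. The order rests on the gene lengths used. In counts over the libraries, SDHA (14181) was above SDHB (8766), and SDHC (4600) above SDHD (2041). In complex III, the small hinge protein UQCRH (194 TPM) and UQCR10 (191 TPM) were the highest and did not differ beyond their spread over lines, which was 172 to 213 for UQCRH and 145 to 238 for UQCR10.

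In complex IV, COX6B1 (363 TPM) stood above COX7C (127 TPM) and COX5B (101 TPM), and COX7A2L was lowest (25.2 TPM). In complex V, ATP5F1B, the catalytic beta subunit, was highest with 424 to 540 TPM. It was followed by the small membrane subunit ATP5MD with 267 TPM and the gamma subunit ATP5F1C, the central shaft, with 211 TPM. The alpha subunit ATP5F1A, which alternates with beta in the F1 ring, had 128 TPM, below beta in every line. In counts alpha was above beta in every line, with 62264 against 52138 over the 6 libraries. The order in TPM thus rests on the lengths, 10908 bases of exons for alpha and 2322 for beta. The peripheral stalk genes ran from 21.4 TPM (ATP5PO) to 107 TPM (ATP5PB). Levels per length depend on the length used: the union of annotated exons was 1.00 to 8.98 times as long as the principal transcript (median 1.85), so genes with many alternative exons, such as NDUFA11 at 8.98 times, may be understated.

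Where a subunit exists in more than 1 form, the ubiquitous form carried the signal. COX6A2, COX7A1, COX7B2 and COX8C, forms known from muscle or testis, had 0 counts in the 6 libraries together, and COX6B2, known from testis, had 11. A count of 0 over 6 libraries allows up to 3. Their counterparts COX6A1, COX7B and COX8A had mean levels of 30.6, 71.7 and 70.2 TPM, and COX7A2 lay between 86.1 and 111 TPM. COX7A2 gave 77.4% to 83.4% of the summed TPM of itself and COX7A2L, a protein involved in supercomplexes. NDUFA4L2, a hypoxia-related copy of NDUFA4, gave 0.870% to 2.40% of their summed TPM. UQCRHL gave 0.782%, 0.835% and 0.858% of the UQCRH and UQCRHL sum in GST lines and 1.15%, 1.20% and 1.30% in NOCT lines. The shares of the groups did not overlap, but 29.4% of the 50-base stretches of the UQCRH transcript also occur elsewhere, chiefly in UQCRHL, so reads of the pair may be split or lost.

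None of the 83 rows passed the test between groups. With edgeR's quasi-likelihood test over 17261 genes, 10 genes in all (0.0579%) had an adjusted p below 0.05, and 0 of the 83 did; all 83 passed the low-count filter. DESeq2 called 508 genes (2.94%) and 0 of the 83. On log2(TPM + 1) limma called 7 of all genes and on log2(TPM + 0.1) 11, with 0 of the 83 in either. At an unadjusted edgeR p below 0.05 there were 13 members, 5 higher in NOCT lines and 8 lower, beside 7.38% and 6.52% of all genes. Groups did not overlap for 18 members, 7 with all NOCT lines above and 11 with all below, beside 10.5% and 9.54% of all genes. Without GST line 9 the 13 became 3, without NOCT line 11 they became 4, without GST line 8 they became 7, and without NOCT line 4 they became 8. Without GST line 2 there were 14 and without NOCT line 12 there were 15. Leaving out a line changed the test for every gene, and shares of all genes at that p are not given here. At an edgeR adjusted p below 0.05, 0 genes in all passed without GST line 9, 1 without NOCT line 11 and 6 without GST line 8. The number was 13 without NOCT line 4, 5 without GST line 2 and 970 without NOCT line 12.

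Of the 83 log2 fold changes (NOCT minus GST), 57 were negative and 26 positive, with a median of -0.065; of all genes tested, 49.3% were negative and the median was 0.0046. The fold changes ran from -0.74 (NDUFV2) to 0.39 (NDUFB5). Medians by complex were -0.078 for complex I, -0.026 for complex II, -0.068 for complex III, -0.064 for complex IV and -0.069 for complex V. Negative values numbered 31 of 38, 3 of 4, 5 of 9, 6 of 10 and 11 of 20. The direction of this count depended on the scaling. On spike-in totals the median of all genes moved to 0.15, and 24 of the 83 members were negative beside 29.5% of all genes. On log2(TPM + 1) the median of all genes was 0.072, and 37 members were negative beside 37.5% of all genes. Relative to the median of all genes, the members' median was -0.069 under TMM, -0.070 under spike-in totals and -0.055 under log2(TPM + 1). Without GST line 9 the members' median was -0.024, and without GST line 2 it was -0.11. The biological coefficient of variation over all genes was 19.7%.

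**Figure D2:**
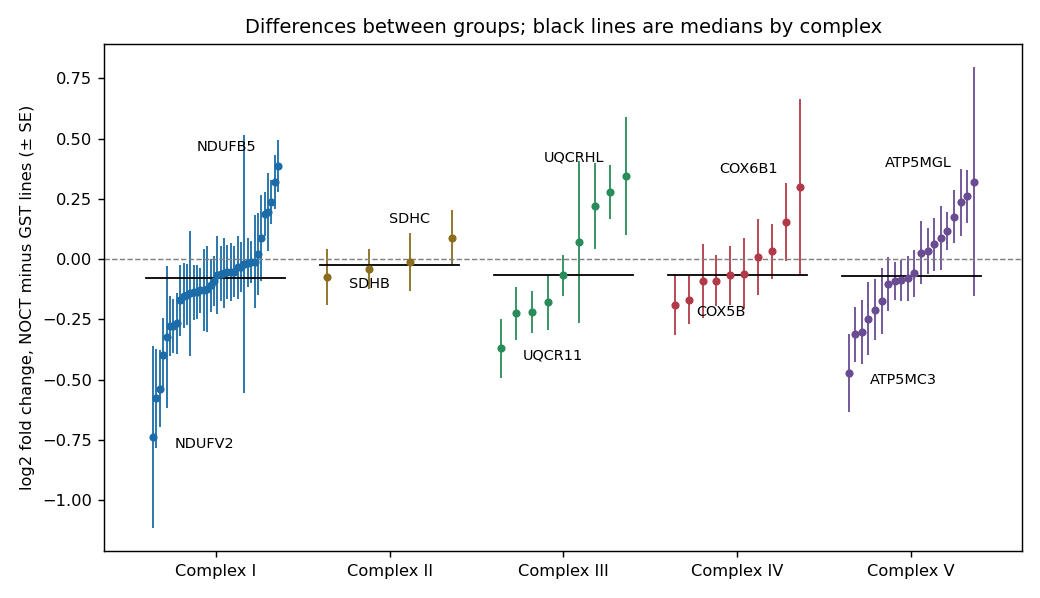
The log2 fold change (NOCT minus GST lines) of each of the 81 subunit genes with its standard error, from edgeR, ordered within each complex; black lines are the medians. The medians of the 5 complexes lie between -0.078 and -0.026, and 0 genes passed an adjusted p of 0.05.

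In complex I, 7 genes had an unadjusted p below 0.05. NDUFB5, an accessory subunit of the membrane arm, had 20.3, 21.0 and 21.3 CPM in GST lines 2, 8 and 9 and 26.3, 27.1 and 28.4 CPM in NOCT lines 4, 11 and 12. All NOCT lines lay above all GST lines, and the spread within each group was small beside the gap. The log2 fold change was 0.39, SE 0.11, and this was the smallest adjusted p of the 83 rows (edgeR adjusted p 0.204). The genes around it did not share the difference, with a median log2 fold change of 0.052 over its neighbours.

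NDUFB10, another membrane-arm accessory subunit, had 95.5, 137 and 140.4 CPM in GST lines 2, 8 and 9 and 85.3, 76.2 and 95.3 in NOCT lines 4, 11 and 12. The groups did not overlap, but GST line 2 and NOCT line 12 were nearly level. Its log2 fold change was -0.54, SE 0.16 (edgeR adjusted p 0.220), and its neighbours on chromosome 16 had a median of -0.33. NDUFB1 had 32.4, 26.2 and 29.3 CPM in GST lines and 36.7, 36.8 and 36.1 in NOCT lines. The NOCT lines were almost equal and all above the GST lines, a difference of 0.32 ± 0.11 on the log2 scale (SE, edgeR adjusted p 0.269). Its neighbours on chromosome 14 had a median of 0.26.

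**Figure D3:**
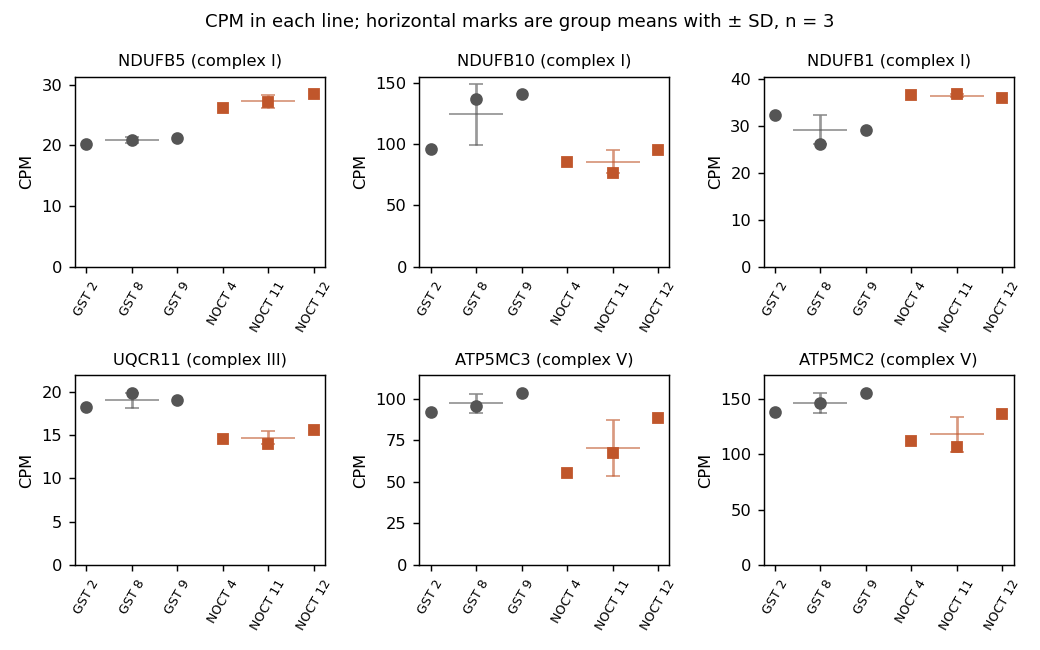
CPM in each line of 6 members of complexes I, III and V with small unadjusted p, with group means and SD (n = 3 lines a group). NOCT lines of NDUFB5 and NDUFB1 lie above every GST line, those of NDUFB10, UQCR11, ATP5MC3 and ATP5MC2 below.

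The other members of complex I with an unadjusted p below 0.05 were looked at after their values were seen. NDUFA8, an accessory subunit with cysteine pairs, had 20.7, 25.2 and 27.2 CPM in GST and 12.8, 21.1 and 15.1 in NOCT lines, a difference of -0.58 ± 0.20 on the log2 scale (SE, edgeR adjusted p 0.270). NOCT line 11 lay above GST line 2, so the groups overlapped. NDUFC1 had a log2 fold change of -0.40 and NDUFB4 of -0.28, while NDUFA6 had 0.24 (edgeR adjusted p 0.301, 0.323 and 0.302). Among the 7 core subunits, 0 of 7 had an unadjusted p below 0.05 and all 7 had negative fold changes, with NDUFV2 lowest at -0.74 and a median of -0.065. That count depended on scaling and lines: 3 of 7 were negative on log2(TPM + 1), 1 of 7 on spike-in totals and 4 of 7 without GST line 9. Of the 29 accessory subunits 22 were negative, with a median of -0.11, and on spike-in totals 10 were.

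NDUFV2, a core subunit that holds an iron-sulfur cluster, had the widest spread of the 81 genes, 1.86 in log2 CPM. It had 22.8, 13.0 and 21.6 CPM in GST lines 2, 8 and 9 and 6.20, 10.2 and 18.1 in NOCT lines 4, 11 and 12. NOCT lines 4 and 11 were lowest, but NOCT line 12 lay above GST line 8. The log2 fold change was -0.74 ± 0.38 (SE, edgeR adjusted p 0.425). Without NOCT line 12 it was -1.23 with an edgeR adjusted p of 0.0490. Of the bases of its principal transcript, 82.9% also lie under another annotated gene of the same strand and 26.2% of its 50-base stretches occur elsewhere, so its count may be incomplete.

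Complex II had the smallest median range over lines of the 5 complexes, 0.24 in log2 CPM, where the others had 0.38 to 0.49. SDHD had 15.3, 16.2 and 16.2 CPM in GST and 15.5, 16.1 and 15.8 in NOCT lines, a range of 0.081 in log2 CPM over the 6 lines. SDHA had 109, 108 and 119 CPM in GST and 109, 111 and 106 in NOCT lines. The groups overlapped for all 4 genes. The log2 fold changes were -0.040 for SDHA, -0.076 for SDHB, 0.089 for SDHC and -0.011 for SDHD, with edgeR adjusted p of 0.863, 0.804, 0.760 and 0.979. SDHA, SDHB and SDHD had the opposite sign on log2(TPM + 1) and on spike-in totals. Of the 50-base stretches of SDHA, 22.3% occur elsewhere, mainly in the pseudogene SDHAP3.

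In complex III, UQCR11, a small subunit, had 18.2, 19.9 and 19.0 CPM in GST lines 2, 8 and 9 and 14.6, 14.02 and 15.6 in NOCT lines 4, 11 and 12. Every NOCT line lay below every GST line. The log2 fold change was -0.37 ± 0.12 (SE, edgeR adjusted p 0.253), and its neighbours had a median of -0.096. UQCRH had 98.3, 103 and 105 CPM in GST and 91.2, 81.4 and 90.3 in NOCT lines, again without overlap, a difference of -0.22 ± 0.088 on the log2 scale (SE, edgeR adjusted p 0.323). UQCR10 went the other way, with 52.4, 63.5 and 59.0 CPM in GST and 74.8, 63.3 and 74.1 in NOCT lines. NOCT line 11 and GST line 8 were level, and the log2 fold change was 0.28 ± 0.11 (SE, edgeR adjusted p 0.327), beside a median of 0.29 for its neighbours on chromosome 22. Relative to those neighbours UQCR10 had a log2 fold change of -0.0096. The 2 core proteins, UQCRC1 and UQCRC2, had -0.18 and -0.068.

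In complex IV, 0 of 10 genes had an unadjusted p below 0.05, and the groups of lines overlapped for all 10. The smallest adjusted p in complex IV was that of COX7C, with 95.5, 86.6 and 96.6 CPM in GST and 90.0, 75.2 and 82.4 in NOCT lines (log2 fold change -0.17 ± 0.10, SE, edgeR adjusted p 0.489). COX5B, which binds zinc, had 47.1, 56.7 and 58.3 CPM in GST and 41.5, 49.1 and 51.7 in NOCT lines (log2 fold change -0.19 ± 0.13, SE, edgeR adjusted p 0.543). COX6C differed by 0.16 ± 0.16 on the log2 scale (SE, edgeR adjusted p 0.706), COX6A1 of -0.091 ± 0.15, COX7B of -0.089 ± 0.10 and COX8A of -0.061 ± 0.15. COX7A2 and COX7A2L had 0.032 and -0.067. COX6B1 had the largest fold change of the complex, 0.30, SE 0.36, with an edgeR adjusted p of 0.751.

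In complex V the 3 genes of the c ring, the proton-driven rotor, all had lower means in NOCT lines, under every scaling and with each line left out. Their median log2 fold change was -0.31 under TMM, -0.23 on log2(TPM + 1) and -0.17 on spike-in totals. These genes, ATP5MC1, ATP5MC2 and ATP5MC3, encode the same mature protein with different import sequences. ATP5MC3 had 92.2, 95.9 and 104 CPM in GST lines 2, 8 and 9 and 55.1, 67.2 and 88.2 in NOCT lines 4, 11 and 12, without overlap, and NOCT line 12 lay close to GST line 2. Its log2 fold change was -0.47 ± 0.16 (SE, edgeR adjusted p 0.264). ATP5MC2 had 138, 146 and 155 CPM in GST and 112, 106 and 136 in NOCT lines, again without overlap (log2 fold change -0.31 ± 0.11, SE, edgeR adjusted p 0.284). ATP5MC1 had 33.2, 42.3 and 40.6 CPM in GST and 33.6, 28.0 and 32.6 in NOCT lines, where NOCT line 4 and GST line 2 were level (log2 fold change -0.30 ± 0.13, SE, edgeR adjusted p 0.361). None of the 3 passed the test. Without NOCT line 12, ATP5MC3 had -0.67 and ATP5MC2 -0.43, with edgeR adjusted p of 0.0194 and 0.0441; 970 genes of all chromosomes passed in that fit.

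The c ring genes kept their proportions in most lines. ATP5MC2 made up 54.6% to 57.2% of their summed TPM, ATP5MC1 20.9% to 26.2% and ATP5MC3 16.6% to 22.4%, the lowest ATP5MC3 share being that of NOCT line 4. ATP5MC3 is the member on chromosome 2, where the neighbours of the gene were also low in NOCT line 4, with a median log2 deviation of -0.36 from their mean over lines. With the neighbours' level removed its log2 fold change was -0.34 (edgeR adjusted p 0.218), and those of ATP5MC2 and ATP5MC1 were -0.30 and -0.32 (edgeR adjusted p 0.167 and 0.239).

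The rest of complex V showed no common direction. The 5 genes of the F1 head had log2 fold changes from -0.25 (ATP5F1D) to 0.088 (ATP5F1E), with ATP5F1B at -0.058 ± 0.098 (SE, edgeR adjusted p 0.825). ATP5F1B had 366, 431 and 444 CPM in GST and 389, 394 and 409 in NOCT lines, all NOCT lines lying between GST line 2 and GST line 8. Of the 4 peripheral stalk genes 3 were positive, up to 0.12 for ATP5PB. Of the 5 small membrane subunits 4 were negative, but 3 were on log2(TPM + 1) and 1 on spike-in totals, and of the F1 genes 3 were negative under TMM and 1 on spike-in totals. The exception, ATP5MPL, had 67.5, 54.0 and 66.0 CPM in GST and 76.1, 71.0 and 77.5 in NOCT lines, without overlap (log2 fold change 0.26 ± 0.11, SE, edgeR adjusted p 0.343). ATP5MPL lies on chromosome 14, and relative to its neighbours its log2 fold change was 0.052.

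Lines of the same group differed from each other across the whole set. GST line 9 had 63 of 81 subunit genes above their mean over lines and GST line 8 had 52, while GST line 2 had 30. Among NOCT lines, line 11 had 20 above its mean, line 4 had 42 and line 12 had 44. NOCT line 11 was the lowest of the 6 lines for 34 genes, and GST line 9 the highest for 28. The median log2 deviations were small: -0.045, 0.076 and 0.094 in GST lines 2, 8 and 9 and 0.0069, -0.10 and 0.017 in NOCT lines 4, 11 and 12. Among the 9817 genes whose mean reached 10 CPM the same medians lay between -0.013 and 0.013. GST line 2, a control, thus lay on the side of NOCT line 11, and the lines of both groups overlapped. For 15 subunit genes the range over all 6 lines was under 0.25 in log2 CPM, and for 6 it was over 1: ATP5MGL, NDUFA4L2, COX6B1, NDUFA8, NDUFV2 and UQCRFS1. The first pair had few counts, 62 and 73 over all libraries.

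Of the 6 genes with a range over 1, COX6B1, UQCRFS1, NDUFV2 and NDUFA8 deviated in the same direction as the genes around them in at least 5 of 6 lines, NDUFA4L2 in 3 and ATP5MGL in 4. Each gene was set beside up to 50 tested genes upstream and 50 downstream whose mean reached 1 CPM, and the median deviation of those neighbours in the same line was taken. COX6B1, on chromosome 19, had 130, 78.8 and 106 CPM in GST lines 2, 8 and 9 and 178, 151 and 58.7 in NOCT lines 4, 11 and 12. NOCT lines held both the highest and the lowest values. Its neighbours deviated by 0.34, -0.47, -0.14, 0.49, 0.49 and -0.73 in the same order of lines, and COX6B1 itself by 0.25, -0.47, -0.041, 0.70, 0.46 and -0.90. UQCRFS1, the Rieske iron-sulfur protein of complex III, lies on the same chromosome and had 146, 75.0 and 110.0 CPM in GST and 146, 139 and 62.3 in NOCT lines. GST line 8 and NOCT line 12 were low for both genes. For UQCRFS1 the log2 fold change was 0.071 ± 0.34 (SE, edgeR adjusted p 0.943). NDUFA4L2 deviated by 0.21, -0.59, 0.49, -0.056, -0.79 and 0.74 in that order of lines, where its neighbours lay between -0.031 and 0.051.

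Further groups of this kind were looked at after the values were seen. The 3 members on chromosome 8, UQCRB, COX6C and NDUFB9, were highest in NOCT line 12. UQCRB, a ubiquinone-binding subunit, had 105, 110 and 105 CPM in GST and 108, 101 and 165 in NOCT lines. The deviations in line 12 were 0.53, 0.43 and 0.41, and those of the neighbours 0.33, 0.45 and 0.48. All 6 members on chromosome 2 (NDUFA10, NDUFB3, NDUFS1, COX5B, COX7A2L and ATP5MC3) were below their mean in NOCT line 4, by -0.25 to -0.57, where their neighbours were at -0.36 to -0.42. The 3 members on chromosome 14 (NDUFB1, ATP5MPL and ATP5S) were below their mean in GST lines 8 and 9 and above it in all NOCT lines, as were their neighbours. NDUFV2, on chromosome 18, had neighbours at 0.29, 0.16 and 0.24 in GST lines and -0.67, -0.20 and 0.17 in NOCT lines. NDUFV2 itself was at 0.70, -0.098 and 0.63 in GST lines and -1.16, -0.45 and 0.37 in NOCT lines, with the opposite sign in GST line 8. On chromosome 22, the neighbour medians of the 4 members were below their mean in GST lines and above it in NOCT lines; NDUFA6 had these signs in every line, but 3 of the 4 members were below their mean in NOCT line 11 and ATP5MGL was at 0.40 in GST line 9. DNA copy number was not measured, and the part of chromosome number in these values was not tested.

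**Figure D4:**
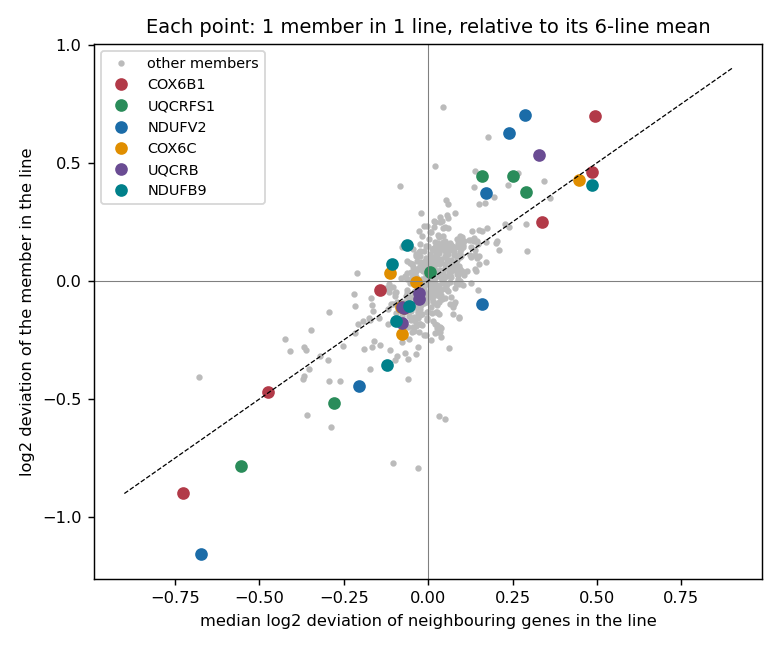
Log2 deviation of each of the 83 members in each line from its mean over lines (vertical axis) against the median deviation of its neighbouring genes in that line (horizontal axis); the dashed line marks equal values and colours mark 6 members. Points with a neighbour deviation of at least 0.2 in size had the same sign in the member in 48 of 49 cases.

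Over all 498 member-by-line points, the Pearson correlation of a member's deviation with that of its neighbours was 0.72 and the Spearman correlation 0.62; the points share libraries, scaling and, for members on 1 chromosome, neighbours. Among 9802 genes with at least 10 CPM the Pearson value was 0.49. The members' median range over lines was 0.45 in log2 CPM, and 0.32 once the neighbours' level was removed. The range was smaller for 64 of 83 (77.1%), beside 67.0% of the 9802 genes. Fold changes of members and of their neighbours had a Pearson correlation of 0.75 and a Spearman correlation of 0.69 over 83 members. With the neighbours' level as an offset, 37 of all genes and 0 members had an edgeR adjusted p below 0.05. In that fit 9 members had an unadjusted p below 0.05, for which the share of all genes is not given here. The members' median log2 fold change there was -0.055.

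The other genes of the pathway gave a like result: 0 had an edgeR adjusted p below 0.05 in any of 8 lists. At an unadjusted edgeR p below 0.05, 1 gene was higher and 2 were lower, beside 7.38% and 6.52% of all genes. They were 1 higher and 1 lower of 12 regulators, and 1 lower of the 3 tested subunits that the name patterns miss. Among the subunits that the name patterns miss, NDUFAB1, the acyl carrier protein of complex I, had 32.2, 34.4 and 34.5 CPM in GST and 29.1, 26.0 and 24.7 in NOCT lines. Its groups did not overlap (log2 fold change -0.34 ± 0.11, SE, edgeR adjusted p 0.246). CYC1, cytochrome c1, and COX4I1, the common form of COX4, had -0.13 and 0.041, and COX4I2, a hypoxia-related form, had 0 counts. The assembly factors, which build the complexes but are not part of them, had medians of -0.037 for complex I (16 genes), -0.064 for complex II (4), -0.029 for complex III (6), -0.022 for complex IV (19 tested of 21) and 0.11 for complex V (4). On spike-in totals these medians were 0.11, 0.083, 0.12, 0.13 and 0.26, and the first 4 were positive on both TPM scales as well. SDHAF1, the assembly factor near COX6B1 on chromosome 19, had 18.4, 9.55 and 12.2 CPM in GST and 29.2, 24.5 and 8.42 in NOCT lines, low in the same lines as COX6B1.

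Of 12 regulators, 9 had negative fold changes, and 4 did on spike-in totals. PPARGC1B, a coactivator of mitochondrial genes, had 28.9, 26.7 and 30.6 CPM in GST and 20.7, 18.7 and 24.0 in NOCT lines, without overlap (log2 fold change -0.44 ± 0.13, SE, edgeR adjusted p 0.223). YY1, on chromosome 14, had 165, 119 and 137 CPM in GST and 177, 160 and 186 in NOCT lines, a difference of 0.32 ± 0.13 on the log2 scale (SE, edgeR adjusted p 0.335) beside 0.22 for its neighbours. NOCT line 11 lay below GST line 2, so the groups of YY1 overlapped. Of the 13 mitochondrially encoded subunits 12 had negative fold changes, with a median of -0.18, and 0 had an unadjusted p below 0.05. On spike-in totals 8 of 13 were negative. MT-CO2, a catalytic subunit of complex IV, had 2827, 2260 and 2424 CPM in GST and 1839, 2073 and 2342 in NOCT lines, NOCT line 12 lying above GST line 8 (log2 fold change -0.26 ± 0.12, SE, edgeR adjusted p 0.396). MT-CO1 had -0.19 and MT-ND2 -0.25. These 13 genes lie on 1 molecule and most are transcribed together, so they do not vary independently.

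Counting limits touched some of the members. A 50-base stretch of the principal transcript recurs in a pseudogene elsewhere for 35 of 81 subunit genes, and 40 had no stretch recurring anywhere. In 5 genes more than 20% of the stretches recur: COX6A1 (34.6%), UQCRH (29.4%), NDUFV2 (26.2%), SDHA (22.3%) and SDHD (20.7%). In 5 more than 50% of the bases lie under another gene of the same strand: NDUFV2, NDUFA7 (75.9%), NDUFB8 (71.7%), ATP5PO (70.3%) and NDUFA11 (67.0%). These overlaps are those of GENCODE 29, which may not be the annotation the authors counted with, so how many reads of these genes were lost was not tested. Around the threshold of 60 counts, NDUFB2-AS1 (55), ATP5MF-PTCD1 (14) and COX6B2 (11) lay outside and ATP5MGL (62) and NDUFA4L2 (73) inside. The antisense rows had 5.27 ± 0.19 and 5.88 ± 1.15 CPM for NDUFA6-AS1 and 1.65 ± 0.19 and 1.48 ± 0.42 CPM for NDUFV2-AS1 in GST and NOCT lines (SD, n = 3 each), with log2 fold changes of 0.16 and -0.16 (edgeR adjusted p 0.767 and 0.842).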

How the data were processed

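RNA from 6 clonal lines was sequenced as strand-specific 50 bp libraries without ribosomal RNA, per the labels' protocols. The authors deposited whole-number counts per gene and library. Per the submitters' processing notes, FastQC 0.10.1, MultiQC 1.0, cutadapt 1.8.1, Trimmomatic 0.33, STAR 2.5.2b, HTSeq 0.6.1p1, DESeq2 1.16.1 and GRCh38 were used, while the annotation release is not given in the sources used here. The authors also deposited TPM values, which are these counts with 1 length per gene, checked on 11896 genes. The authors' deposited table of log2 fold changes, log2 standard errors, test statistics (a score), mean normalised signal, p-values and adjusted p-values was used only to check the members and gave no printed value.

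Library totals and tests used gene rows only, without the 5 rows that name no gene. Unassigned reads without a feature were 26.5% to 30.6%, ambiguous reads 2.02% to 2.41% and reads without a unique alignment 13.3% to 14.6% of a file. The main test was edgeR 4.0.16 in R 4.3.3: filterByExpr, TMM factors from genes alone, a quasi-likelihood fit on group, and Benjamini-Hochberg adjustment over 17261 genes with a threshold of 0.05. CPM are TMM-scaled. Alternatives were DESeq2 1.42.0, RLE factors, spike-in totals, at least 10 counts in place of the filter, limma 3.58.1 on log2(TPM + 1) and log2(TPM + 0.1), an offset for up to 50 neighbours on each side, and leaving out each line. The edgeR fit was tested on simulated data. Coordinates came from GENCODE 29 on GRCh38, matched for 58275 of 58395 genes, and promoters from RefSeq on GRCh38.p14.

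Named genes were, in each complex, the 3 with the smallest unadjusted p, the highest and lowest by mean TPM and the 1 with the widest range over lines, then the isoform and paralog groups, all SDH genes, and up to 3 genes a list for the other pathway lists. Genes named beyond this rule were chosen after their values were seen. The members and the lists were chosen with earlier results of these data known. One member is not reported here by name.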

Additional observations from a re-analysis of the deposited data

How the results depend on the processing

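No paired analysis was possible because the lines of the 2 groups share no replicate numbers. The number of members with an adjusted p below 0.05 was 0 under every alternative other than leaving out NOCT line 12, and 0 to 3 with each line left out. Over all genes, 508 passed with DESeq2, 36 with at least 10 counts, 37 with the neighbour offset, 22 on spike-in totals and 0 to 970 with each line left out. The members' median log2 fold change was 0.018 on both TPM scales and 0.082 on spike-in totals. On log2(TPM + 0.1) the medians were 0.061 for complex II, 0.018 for III and 0.021 for V. On log2(TPM + 1) they were 0.0047 for complex I, 0.059 for II, 0.018 for III and 0.021 for V. On spike-in totals they were 0.070 for complex I, 0.12 for II, 0.080 for III, 0.084 for IV and 0.080 for V. With each line left out, the median of complex III ran from -0.15 to -0.044. On the strand of the gene only, the ETS letters were in 12.9% of the promoters (5.98% of all promoters) and the SP1 letters in 19.4% (29.9% of all). Of 37 named members, 17 kept the sign of their fold change in every setting, and for the others the cause was not tested. On log2(TPM + 0.1), the log2 fold changes were 0.033 (ATP5F1B), 0.0083 (COX7A2L), 0.026 (COX8A), 0.030 (NDUFA4), 0.048 (NDUFB9), 0.029 (NDUFS5), 0.047 (SDHA), 0.0071 (SDHB), 0.075 (SDHD). On log2(TPM + 1), the log2 fold changes were 0.033 (ATP5F1B), 0.0083 (COX7A2L), 0.026 (COX8A), 0.029 (NDUFA4), 0.015 (NDUFA4L2), 0.048 (NDUFB9), 0.029 (NDUFS5), 0.046 (SDHA), 0.0071 (SDHB), 0.071 (SDHD). On spike-in totals, the log2 fold changes were 0.091 (ATP5F1B), 0.057 (COX6A1), 0.081 (COX7A2L), 0.056 (COX7B), 0.087 (COX8A), 0.092 (NDUFA4), 0.12 (NDUFA4L2), 0.13 (NDUFB9), 0.096 (NDUFS5), 0.11 (SDHA), 0.072 (SDHB), 0.14 (SDHD). With the neighbour offset, the log2 fold changes were 0.010 (COX5B), -0.069 (COX6C), -0.020 (COX7A2), 0.073 (COX7A2L), -0.0078 (NDUFA6), 0.036 (SDHA), -0.0096 (UQCR10). Leaving out each line in turn gave ranges of -0.43 to -0.25 (ATP5MC2), -0.67 to -0.33 (ATP5MC3), -0.0088 to 0.64 (COX6B1), -0.051 to 0.29 (COX6C), -0.037 to 0.10 (COX7A2), -0.14 to 0.046 (COX7A2L), -0.13 to 0.0082 (COX8A), -0.15 to 0.021 (NDUFA4), -0.55 to 0.31 (NDUFA4L2), -0.25 to 0.14 (NDUFB9), -0.15 to 0.024 (NDUFS5), -1.23 to -0.44 (NDUFV2), -0.076 to 0.0042 (SDHA), -0.039 to 0.00067 (SDHD), -0.035 to 0.35 (UQCRB), -0.15 to 0.37 (UQCRFS1). With 3 lines a group, the sign of the members' median fold change depended on the scaling. ATP5MGL and NDUFA4L2, with 62 and 73 counts in all, were measured least precisely.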

Other observations

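Of the 147 pseudogene rows that the name patterns matched, 6 had at least 60 counts summed over the libraries. COX6A1P2 had 530 counts, COX6CP1 222, NDUFV2P1 216, NDUFA9P1 141, UQCRFS1P1 101 and COX6CP17 69. COX6A1P2, NDUFV2P1 and UQCRFS1P1 are the genes sharing the most 50-base stretches with COX6A1, NDUFV2 and UQCRFS1.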
